A study of Danio rerio with 170 samples.

Results

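Dibenzo[a,l]pyrene (DBalP) is a polycyclic aromatic hydrocarbon, a molecule of fused benzene rings formed by incomplete combustion. The data describe what 10 µM DBalP did to the transcriptome of whole 48-hpf zebrafish relative to the DMSO vehicle of the same study. The members are the 5 entries of the deposited table labelled DBalP in the study called PE50_AK, of 170 entries in the whole series. Entries that shared a sequencing lane and index were averaged, which left 3 DBalP libraries. The same step left 3 DMSO libraries from 7 entries, 3 libraries of 10 µM benzo[a]pyrene (B[a]P) from 7 entries and 3 libraries of 1 µM B[a]P from 6 entries. All were wildtype Tropical 5D embryos, dechorionated at 4 hpf and exposed from 6 hpf in glass vials, with 1% DMSO as vehicle. Each sample pooled 20 whole embryos and was read by polyA-selected 50 bp paired-end sequencing. For comparison with related compounds, 4 libraries of dibenzo[a,h]pyrene (DBahP, 10 µM), 4 of dibenzo[a,i]pyrene (DBaiP, 5 µM) and the 3 DMSO libraries of their own study were used, read at 100 bp on another sequencer. These were also taken at 48 hpf, and their DMSO libraries are labelled 1% DMSO. A further 3 DMSO libraries, of the study called PE50_BG (48 hpf, 1% DMSO), served only as replacement controls in a check of the processing. DBahP and DBaiP are isomers of DBalP with the added benzo rings fused at other positions, and B[a]P carries a benzo ring less.

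Polycyclic aromatic hydrocarbons enter cells and bind the aryl hydrocarbon receptor (AHR), a ligand-activated transcription factor whose main zebrafish form for such ligands is encoded by ahr2. Bound AHR pairs with ARNT proteins and switches on cytochrome P450 genes of the CYP1 family, above all cyp1a, whose enzymes oxidize the ligand. For some of these hydrocarbons, DBalP among them, the oxidized products in mammals include diol epoxides that bind to DNA bases. Damaged DNA stabilizes the p53 protein, which raises transcription of genes for cell cycle arrest (cdkn1a), for its own control (mdm2) and for apoptosis (bbc3, also called puma). Transcripts of these 2 pathways can therefore be read side by side in the same embryos.

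The DBalP libraries held 8312474 to 13158246 reads on the genes of the table and the DMSO libraries 9027548 to 18087648. DMSO library 3 stood apart from the other DMSO libraries, with 840 genes at 0 reads against 137 and 329, so results are also given without it. The DMSO and 10 µM B[a]P libraries were sequenced in lane 3 and the DBalP and 1 µM B[a]P libraries in lane 4. For DBalP against DMSO, or against 10 µM B[a]P, the lane and the treatment cannot therefore be told apart. DBalP against 1 µM B[a]P lies within lane 4, though the doses differ. Values below are normalized read counts per library in the order of the library numbers, and changes are log2 fold changes (log2FC) of the normalized count plus 1, with the standard error (SE) and an adjusted p from limma over 21854 genes. In whole embryos, fewer cells of a type and less RNA per cell cannot be told apart.

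DBalP changed many transcripts. At an adjusted p under 0.05, 2998 genes rose (13.7% of those tested) and 3120 fell (14.3%). Of these, 834 higher and 712 lower genes passed an absolute log2FC of 1 and are called DEGs, 7.07% of all genes, and the median log2FC over all genes was 0.025. Without DMSO library 3 there were 1569 DEGs (7.18%), of which 958 were higher and 611 lower. The same test gave 97 DEGs (0.444%) for 10 µM B[a]P and 21 (0.0961%) for 1 µM B[a]P against the same DMSO libraries, and 193 and 140 without DMSO library 3.

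The p53 targets held the largest increase named here, and it was that of cdkn1a, the cyclin-dependent kinase inhibitor p21. Of 46 listed p53 targets 39 were measured, of which 19 rose, 4 fell and 16 did not pass the test, against 13.7% higher and 14.3% lower over all genes. Their median log2FC was 0.58, and without DMSO library 3, where 17.3% of all genes were higher and 17% lower, the counts were 22 and 5. In the DBalP libraries 23 members lay above and 5 below every DMSO library, against 18.9% and 17.8% of all genes.

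cdkn1a (NCBI Gene 100151416) was at 53, 42.6 and 80.4 normalized reads in the DMSO libraries and at 2109.9, 2244 and 2293 in the DBalP libraries. Every DBalP library stood far above every DMSO library, and the log2FC was 5.26 ± 0.21 (adjusted p 7.4e-09). The 10 µM B[a]P libraries read 164, 162 and 251 and the 1 µM libraries 130.3, 103 and 99.9, all between the DMSO and the DBalP libraries.

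Regulators of the p53 protein moved in both directions. mdm2 (NCBI Gene 30637), the ubiquitin ligase that degrades p53 and is its direct target, went from 133, 111 and 121 to 659, 825 and 833 (log2FC 2.65 ± 0.17, adjusted p 1.2e-07). The DBalP and DMSO libraries did not overlap for mdm2. In the other direction, ppm1da, for the phosphatase that switches p53 signalling off in mammals, was at 819, 828 and 668 in DMSO and 537, 545 and 574 in DBalP (log2FC -0.48, adjusted p 0.0031). mdm4, the partner of mdm2, had a log2FC of -0.20 (adjusted p 0.12), which passed the test only without DMSO library 3 (-0.30, adjusted p 0.0029).

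Arrest and damage genes other than cdkn1a rose together. gadd45aa, a growth arrest and DNA damage gene, read 36.6, 36.9 and 51.5 in DMSO and 229, 208 and 208 in DBalP (log2FC 2.35 ± 0.20). rps27l, a p53-induced ribosomal protein paralog, read 120.3, 138 and 116 and 999, 874 and 780.1 (log2FC 2.81 ± 0.17), though reads can be shared with its close relative rps27. phlda3, which restrains Akt signalling, read 146, 97.2 and 114 and 805, 758 and 765 (log2FC 2.72 ± 0.19). All DBalP libraries exceeded all DMSO libraries for these 3 genes. sesn3 and sesn2, sestrins that restrain mTORC1, rose by a log2FC of 1.23 and 0.96. plk3, a stress-responsive kinase, rose by 0.70, and btg2, an antiproliferative gene, had a log2FC of 0.45 (adjusted p 0.058), which passed only without DMSO library 1 (0.57, adjusted p 0.024).

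The apoptosis genes among the p53 targets rose as well. bbc3 (NCBI Gene 751763), the BH3-only protein Puma, read 33.7, 53.8 and 56.3 in DMSO and 363, 352 and 382 in DBalP (log2FC 2.94 ± 0.24, adjusted p 9.5e-07). casp8, the initiator caspase of death receptors, read 121, 86.3 and 61.9 and 446, 385 and 429 (log2FC 2.26 ± 0.21). tnfrsf1a, a TNF receptor, read 117, 175 and 95.6 and 633, 585 and 600.0 (log2FC 2.26 ± 0.17). Here too the groups did not overlap. baxa, the pore-forming Bcl-2 relative, rose from 338, 417 and 322 to 757, 792 and 772 (log2FC 1.11). apaf1, the apoptosome scaffold, rose by 0.59 and pidd1, a death-domain scaffold, by 0.58. The call of pidd1 was lost without DBalP library 1, 2 or 3 (adjusted p 0.051, 0.13 and 0.062) and without DMSO library 1 (0.057). pmaip1 (Noxa) rose by 1.04 (adjusted p 0.011), and its adjusted p was 0.051 without DBalP library 3. fas, a death receptor, had few reads, with 12.4, 10.3 and 16.5 in DMSO and 2.96, 6.02 and 6.57 in DBalP (adjusted p 0.088), and perp had a log2FC of 0.25 (adjusted p 0.094), which passed only without DMSO library 3 (0.40). The wider list of apoptosis machinery shares bbc3, casp8, tnfrsf1a, baxa, apaf1 and pmaip1 with the p53 targets. Of its 34 measured genes 13 rose and 2 fell, with a median of 0.58, against 13.7% higher and 14.3% lower over all genes. fadd, the adaptor that joins death receptors to casp8, rose by 1.15.

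Not every p53 target rose. zmat3, an RNA-binding p53 target, read 54.9, 60.7 and 64.4 in DMSO and 20.6, 33.1 and 28.6 in DBalP (log2FC -1.12 ± 0.24, adjusted p 0.0029). xpc, which recognizes bulky lesions in nucleotide excision repair, read 391.5, 369 and 595 in DMSO and 231, 271 and 274 in DBalP (log2FC -0.77 ± 0.16, adjusted p 0.003). In both genes every DBalP library was below every DMSO library. For xpc the 10 µM B[a]P libraries were as low, at 264, 246 and 288.

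**Figure D1:**
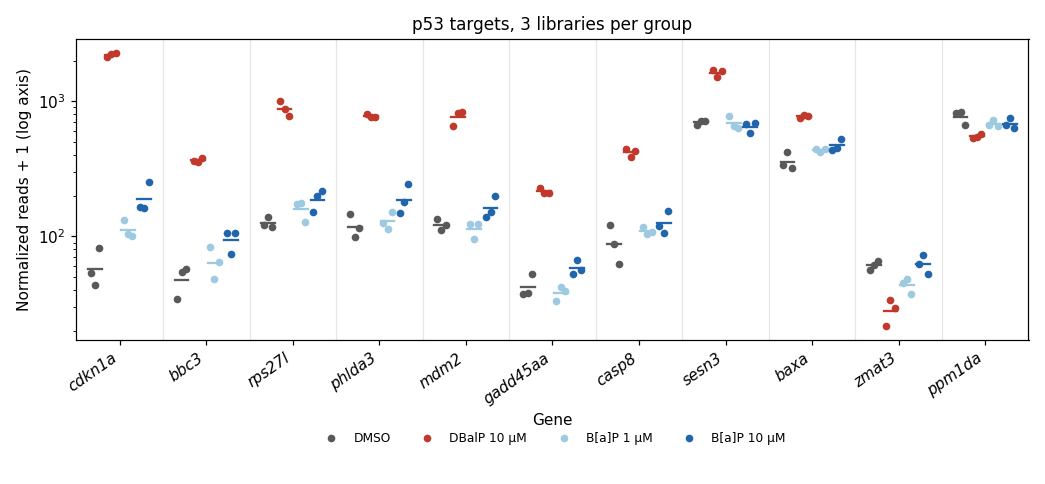
Normalized reads plus 1 on a log axis for 11 p53 targets in the DMSO, DBalP, 1 µM and 10 µM B[a]P libraries, a point per library and a bar at the group's mean on the log scale. The 3 DBalP points of cdkn1a lie between 2110 and 2293, above the 9 other points, while ppm1da and zmat3 are lower in DBalP than in DMSO.

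The AHR battery, a list of genes linked to AHR ligands, gave another picture. The authors' co-expression network of this series grouped some members, such as wfikkn1, cyb5a and sult6b1, with cyp1a. The counts of the list are therefore not independent of these data. Of 28 listed genes 27 were measured, of which 7 rose and 4 fell with DBalP (25.9% and 14.8%, against 13.7% and 14.3% of all genes), and the median log2FC was -0.0003. Without DMSO library 3 the counts were 10 and 6, where 17.3% and 17% of all genes were higher and lower. The share that fell was near that of all genes with all libraries. The 7 that rose were cyp1a, dhrs13l1, wfikkn1, pkhd1l1.1, sult6b1, cyb5a and ahr2. Against the same DMSO libraries, 10 µM B[a]P raised 14 and lowered 1 of the 27 (0.769% and 0.32% of all genes), with a median of 1.54. Without DMSO library 3 it raised 17 and lowered 2 (2.73% and 2.23% of all genes).

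cyp1a (NCBI Gene 140634) read 112, 80.7 and 184 in DMSO and 927, 825 and 703 in DBalP, with no overlap (log2FC 2.77 ± 0.20, adjusted p 4.6e-07). The 1 µM B[a]P libraries read 4078, 4002 and 4511 and the 10 µM libraries 14666, 15567 and 15689. DBalP embryos thus held more cyp1a RNA than DMSO embryos and less than embryos at either dose of B[a]P. At the matched dose the log2 difference was -4.23 ± 0.20 (adjusted p 9.4e-09), and within lane 4 against 1 µM B[a]P it was -2.36 ± 0.20 (adjusted p 2.1e-06).

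The CYP1C genes, a fish branch of the CYP1 family, did not rise with DBalP. cyp1c1 (NCBI Gene 553637) read 206, 243 and 264 in DMSO, 171, 197 and 190.0 in DBalP and 3975, 3654 and 4002 in 10 µM B[a]P. Its log2FC with DBalP was -0.35 ± 0.11 (adjusted p 0.034), and the adjusted p was 0.12 without DBalP library 1, 0.07 without DBalP library 3 and 0.076 without DMSO library 2. The difference from 10 µM B[a]P, -4.37 ± 0.11, kept every DBalP library below every B[a]P library (adjusted p 1.3e-11). cyp1c2 read 69.8, 121 and 67.5 in DMSO and 45.1, 107 and 85.1 in DBalP, which overlap, against 850.2, 892 and 980.5 in 10 µM B[a]P.

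Other genes that strong AHR ligands raise followed cyp1c1. foxq1a, a forkhead factor, read 28.7, 15.8 and 19.7 in DMSO, 25.7, 27.1 and 35.3 in DBalP and 132, 182 and 137 in 10 µM B[a]P. DBalP and DMSO overlapped (adjusted p 0.2), and the difference from 10 µM B[a]P was -2.32 ± 0.26. foxq1b, its paralog, fell with DBalP (log2FC -1.26, adjusted p 0.0021). gstp1.2, a glutathione S-transferase of the pi class, read 1499, 1097 and 1634 in DMSO, 1742, 1571 and 1603 in DBalP and 5262, 5679.8 and 5083 in 10 µM B[a]P. Its log2FC with DBalP, 0.24, passed only without DMSO library 3 (0.35, adjusted p 0.0053). fgf7, a growth factor, had a log2FC of -0.41 with DBalP (adjusted p 0.4) and of 2.77 with 10 µM B[a]P (adjusted p 0.00057).

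DMSO library 3 decided what the AHR repressor and a long noncoding RNA showed. ahrra, the AHR repressor, read 6.94, 5.24 and 100.3 in DMSO and 29.2, 19.6 and 13.8 in DBalP, with DMSO library 3 above all others. Its log2FC was 0.29 with all libraries (adjusted p 0.8), 1.57 without DMSO library 3 (adjusted p 0.00034) and -0.44 without DMSO library 2. LOC110366352, the long noncoding RNA slincR, read 32.7, 53.4 and 179 in DMSO and 129, 144 and 94.9 in DBalP. Its log2FC of 0.82 (adjusted p 0.17) became 1.51 without DMSO library 3 (adjusted p 2.1e-06). tiparp, an AHR-induced ADP-ribosyltransferase, went from a log2FC of -0.00 to -0.37 (adjusted p 0.048).

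Another set of battery genes rose with DBalP as it did with B[a]P. sult6b1, a sulfotransferase, read 453, 433 and 366 in DMSO and 1113, 962 and 779 in DBalP (log2FC 1.18 ± 0.13), and 983, 976 and 1160.2 in 1 µM B[a]P. dhrs13l1, a short-chain dehydrogenase, read 163, 163 and 108 and 503, 492 and 449.8 (log2FC 1.75 ± 0.16). pkhd1l1.1, a fibrocystin relative, read 380.3, 311 and 217 and 864, 829 and 834 (log2FC 1.51 ± 0.18). In each gene all DBalP libraries lay above all DMSO libraries. The difference between DBalP and 1 µM B[a]P was -0.14 for sult6b1 (95% interval -0.41 to 0.13), 0.17 for dhrs13l1 (-0.16 to 0.50) and -0.10 for pkhd1l1.1 (-0.49 to 0.30), all at unequal doses. At the matched 10 µM dose DBalP was lower than B[a]P by -1.16, -0.92 and -0.75 in that order (adjusted p 1.8e-05, 0.00066 and 0.0095). cyb5a, cytochrome b5, rose by 0.75 with DBalP. wfikkn1, a secreted protease inhibitor, had few reads, 2.97, 0 and 3.53 in DMSO and 9.49, 6.02 and 5.7 in DBalP (log2FC 1.59, adjusted p 0.041). Its call was lost without DMSO library 2 (log2FC 0.90, adjusted p 0.15) and without any 1 of DBalP libraries 1 to 3 (adjusted p 0.13, 0.075 and 0.072).

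The receptor genes themselves moved little or down. ahr2 read 1597, 1481 and 1569.9 in DMSO and 1979.5, 1985 and 1973 in DBalP (log2FC 0.35 ± 0.08, adjusted p 0.0037), with no overlap. ahr1b, another receptor gene, fell from 314, 390.4 and 403 to 238, 191 and 202 (log2FC -0.81 ± 0.12, adjusted p 0.00022). arnt2, the partner subunit, fell from 1265, 1298 and 1421 to 897, 873 and 851 (log2FC -0.60 ± 0.08, adjusted p 0.00011). Both were also lower than with 10 µM B[a]P, by -0.84 and -0.50 (adjusted p 0.00021 and 0.00061).

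**Figure D2:**
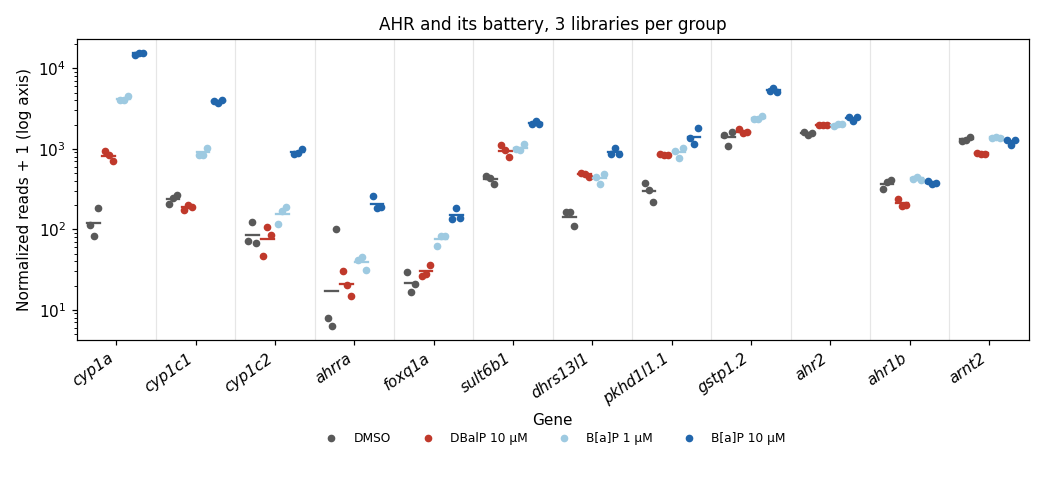
Normalized reads plus 1 on a log axis for 12 genes of the AHR battery in the DMSO, DBalP, 1 µM and 10 µM B[a]P libraries, a point per library and a bar at the group's mean on the log scale. For cyp1a the DBalP points (703 to 927) lie between DMSO (80.7 to 184) and 1 µM B[a]P (4002 to 4511), and for cyp1c1 they lie at or below the DMSO points.

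DBalP and B[a]P could be compared at 10 µM in the same study, but in different lanes, so lane and compound cannot be told apart. The comparison gave 941 DEGs, 348 higher and 593 lower with DBalP (4.31% of all genes). There were 1188 DEGs without DMSO library 3, which enters this fit through the shared spread. This pair and the pair of DBalP and DBahP were the 2 compared at a matched dose, with p-values adjusted over genes within each. The lists split by pathway. Of the 39 p53 targets 17 were higher and 2 lower in DBalP, against 8.92% and 11.7% of all genes. Without DMSO library 3 the counts were 21 and 4, against 16% and 17.7% of all genes. Of the 27 AHR battery genes 1 was higher and 22 lower, with a median of -1.16. The higher one was clcn2c, a chloride channel, at 78.4, 101 and 79.5 in DBalP and 22.7, 23.1 and 10.5 in 10 µM B[a]P (log2 difference 2.21, adjusted p 0.00014). cdkn1a was higher in DBalP by 3.55 ± 0.21 (adjusted p 9.7e-08) and mdm2 by 2.25 ± 0.17.

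With 10 µM B[a]P, 2 of the 39 p53 targets were higher and 1 lower than in DMSO (0.769% and 0.32% of all genes). Without DMSO library 3 the counts were 6 and 1 (2.73% and 2.23% of all genes). With all libraries it raised cdkn1a by 1.71 ± 0.21 (adjusted p 0.00066) and aifm2, a p53-inducible oxidoreductase, by 1.05, and lowered xpc by -0.73 (adjusted p 0.048). aifm2 rose by 0.80 with DBalP, and the difference between the compounds was -0.26 (95% interval -0.50 to -0.01, adjusted p 0.14). mdm2 had a log2FC of 0.40 with 10 µM B[a]P (adjusted p 0.29). Within lane 4, 20 p53 targets were higher and 2 lower in DBalP than in 1 µM B[a]P, against 9.82% and 13.1% of all genes. Without DMSO library 3 the counts were 21 and 4, against 16.9% and 18.9% of all genes. In that lane cdkn1a was apart by 4.32 ± 0.21.

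DBahP, the isomer at the same 10 µM dose, was tested as a difference of changes, each against its own DMSO libraries, and the studies differ in read length and sequencer. That difference reached the DEG limits in 1202 genes (5.5%). DBahP raised 12 and lowered 0 of the 27 AHR battery genes (0.645% and 2.3% of all genes), and 0 of the 39 p53 targets passed in either direction in its own contrast. The difference of changes was higher for DBalP in 13 p53 targets and lower in 3 (5.55% and 5.93% of all genes), and lower in 11 AHR battery genes and higher in 0. cdkn1a read 110.3, 123 and 73.2 in the DMSO libraries of that study and 77.2, 52.6, 68.4 and 73.7 with DBahP, which overlap. The difference of changes for cdkn1a was 5.83 ± 0.32 (adjusted p 2.7e-08) and for mdm2 2.83 ± 0.24.

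The order of the isomers was turned round for cyp1a. Its DMSO libraries in the other study read 132, 259.9 and 127 and its DBahP libraries 13107, 14081, 11948 and 14603 (log2FC 6.35 ± 0.18). The difference of changes, DBalP minus DBahP, was -3.58 ± 0.35 (adjusted p 8.3e-06). For cyp1c1 it was -2.17 ± 0.23, for ahrra -3.08 ± 0.95 and for foxq1a -1.09 ± 0.33 (adjusted p 1.5e-05, 0.044 and 0.042). Without DMSO library 3 the difference for ahrra was -1.79 ± 0.43 (adjusted p 0.0077). DBaiP, at 5 µM and so not at a matched dose, read 13007, 17137, 13736 and 13525 for cyp1a and 71.0, 71.3, 80.8 and 76.6 for cdkn1a. dhrs13l1 rose by 1.75 with DBalP and 1.40 with DBahP, and the difference of 0.35 ± 0.26 did not pass (adjusted p 0.41).

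**Figure D3:**
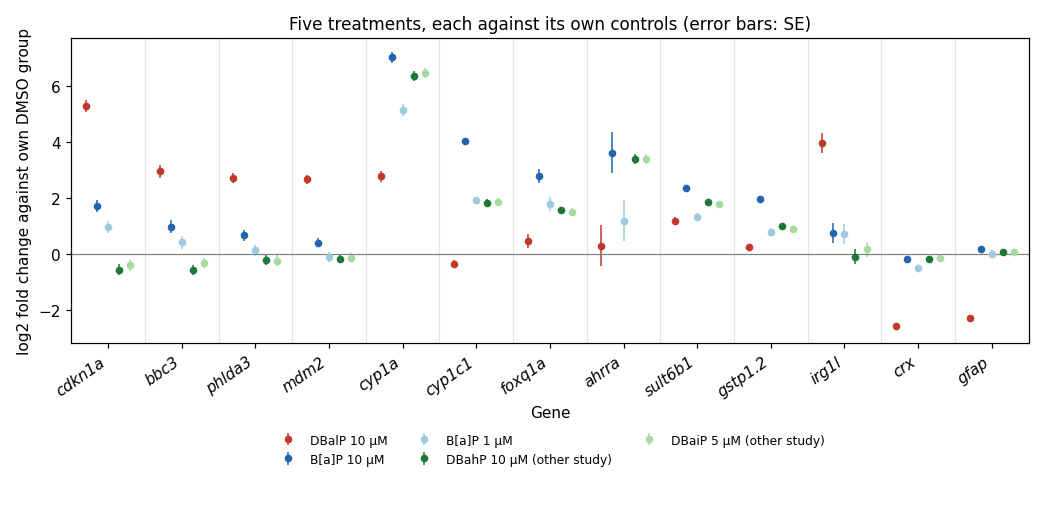
Log2 fold change with its SE against the DMSO libraries of the same study for 13 genes under DBalP, 10 µM and 1 µM B[a]P, DBahP and DBaiP. DBalP has the highest point for cdkn1a, bbc3, phlda3 and mdm2 and the lowest for cyp1a and cyp1c1, where 10 µM B[a]P reaches 7.0 and 4.03.

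Genes of DNA recombination and replication stress were more often higher than lower, while most members of the repair lists did not pass the test. Over all genes 13.7% were higher and 14.3% lower, and the counts of this and the other lists stand beside those shares. Without DMSO library 3 the shares were 17.3% and 17%. Calls over all genes, 6118 in either direction with all libraries, also moved with each library left out. They were 4674, 4755 and 4445 without DBalP library 1, 2 and 3, and 7009, 6030 and 7493 without DMSO library 1, 2 and 3. List counts with a library left out, here and below, move beside those totals. In the list of Fanconi anemia and homologous recombination genes, which act on crosslinks and broken forks, 12 of 27 rose and 0 fell (median 0.60, 14 and 1 without DMSO library 3). brca2, a recombination mediator, read 104, 122 and 136 in DMSO and 269, 295 and 269 in DBalP, with no overlap (log2FC 1.20 ± 0.14). rad51b, a recombination gene, rose by 1.1, rad52 by 0.96, rad54l, a recombination motor protein, by 0.93 and blm, a helicase, by 0.79. Of 24 translesion synthesis and replication stress genes 8 rose and 0 fell, but 4, 5 and 3 rose without DBalP library 1, 2 and 3 and 5 without DMSO library 2. chek1, the checkpoint kinase, rose by 1.25, and pcna, the sliding clamp and a known p53 target in mammals, went from 2500.5, 2214 and 2059 to 3285, 3297 and 3520.4 (log2FC 0.58 ± 0.09). Of 24 nucleotide excision repair genes 5 were higher (20.8%, and 3 without DBalP library 3) and 3 lower (12.5%), near the shares over all genes, with a median of 0.01.

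Replication and division transcripts rose too, by smaller steps. Of 39 replication genes 16 rose (41%) and 0 fell (median 0.44), and of 37 mitosis genes 21 rose (56.8%) and 0 fell (median 0.46), against 13.7% higher and 14.3% lower over all genes. mki67, the proliferation marker Ki-67, read 4979.6, 5199 and 5118 in DMSO and 8229, 8748 and 8811 in DBalP (log2FC 0.75 ± 0.08, adjusted p 1.6e-05), with no overlap. aurkb, a mitotic kinase, rose by 0.78, bub1, a spindle checkpoint kinase, by 0.70, tyms, thymidylate synthase, by 0.78 and dhfr by 0.80. Against 10 µM B[a]P, 26 replication and 29 mitosis genes were higher and 0 lower, where 8.92% of all genes were higher and 11.7% lower. These differences also hold lower levels in B[a]P. With 10 µM B[a]P the replication genes had a median of -0.27 against DMSO, with 0 higher and 1 lower. Without DMSO library 3, 8 were lower (20.5%, against 2.23% of all genes). The summed mitosis level was 23772 to 24510 in 10 µM B[a]P, 28341 to 29934 in DMSO and 39266 to 41738 in DBalP. Of 44 ribosome biogenesis genes 18 rose and 1 fell, among them fbl, the nucleolar methyltransferase fibrillarin, by 0.74, and 29 rose and 1 fell without DMSO library 3.

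Of 4 stress lists 3 had at least 50% of their measured members higher, against 13.7% higher and 14.3% lower over all genes. In the Nrf2 and glutathione list, genes that answer electrophiles, 15 of 30 rose and 0 fell (median 0.48). hmox1a, heme oxygenase, read 169, 175 and 181 in DMSO, 403, 367 and 408 in DBalP and 371, 409 and 661 in 10 µM B[a]P (log2FC 1.16 ± 0.19 with DBalP). DBalP and 10 µM B[a]P overlapped, with a difference of -0.24 (95% interval -0.65 to 0.16, adjusted p 0.42). prdx1, a peroxiredoxin, rose by 1.00 with DBalP and was -0.97 relative to 10 µM B[a]P (adjusted p 0.00015). gsr, glutathione reductase, rose by 1.18 and sqstm1, the autophagy receptor p62, by 1.00.

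Of 28 unfolded protein and integrated stress genes 15 rose and 1 fell (median 0.44). atf3, a stress-induced transcription factor, read 83.2, 95.8 and 113 in DMSO and 383, 405 and 369 in DBalP, with no overlap (log2FC 1.98 ± 0.16, adjusted p 8.4e-07). chac1, which degrades glutathione, rose by 1.20, asns, asparagine synthetase, by 1.07 and psat1, of serine synthesis, by 0.98. Of 20 heat shock genes 10 rose and 0 fell (median 0.70), with hsph1 at 1.33, hsp70l at 1.32, the co-chaperone bag3 at 1.17 and the collagen chaperone serpinh1b at 1.05. Among hypoxia genes, where 6 of 24 rose (25%) and 5 fell (20.8%), igfbp1a, an IGF-binding protein, rose by 1.82 and ndrg1b changed by -1.59.

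Inflammatory transcripts had the highest median of the lists. Of 23 measured genes of 32 listed, 17 rose and 0 fell (median 1.46, 18 and 0 without DMSO library 3). Against 10 µM B[a]P, 11 were higher and 0 lower, where 8.92% of all genes were higher and 11.7% lower. irg1l, the enzyme of itaconate synthesis, read 20.8, 27.3 and 10.6 in DMSO and 330.2, 284 and 277 in DBalP (log2FC 3.95 ± 0.34, adjusted p 1.9e-06), against 24.8, 35.7 and 35 in 10 µM B[a]P. socs3a, a feedback inhibitor of cytokine signalling, read 58.9, 41.5 and 18.7 and 450.001, 445 and 472 (log2FC 3.63 ± 0.29). timp2b, a metalloproteinase inhibitor, read 169, 167 and 189.5 and 1266, 1079 and 1046 (log2FC 2.68 ± 0.12, adjusted p 7.6e-09). None of the 3 overlapped between DBalP and DMSO. The AP-1 subunits fosl1a and fosab rose by 3.06 and 2.37, and socs3b by 2.75.

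Low-count members of these lists depended on single DMSO libraries. ptgs2b, a cyclooxygenase, rose by 3.40, which was 4.05 without DMSO library 1 and 2.55 without DMSO library 3. cxcl8b.1, a neutrophil chemokine, read 2.48, 4.77 and 0 in DMSO and 28.8, 24.1 and 16.6 in DBalP (log2FC 3.12, 2.4 without DMSO library 3). isg15, the ubiquitin-like protein that interferon induces, read 13.8, 0.748 and 0 and 54.3, 87.3 and 70.5 (log2FC 4.57), and gave 5.74 without DMSO library 1 and 3.79 without DMSO library 3. DMSO library 1 averages 3 entries with equal weight, and their size factors (relative depths) run from 0.0293 to 0.673. A single read in the shallowest entry adds far more to a value than a read in the deepest, so the 13.8 need not reflect many reads. Of 22 measured interferon genes 7 rose (4 without DBalP library 1) and 0 fell, with irf9 at 1.76, irf1b at 1.68 and b2m, the light chain of class I antigen presentation, at 1.59.

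Of 16 neutrophil and macrophage markers 2 rose (12.5%, against 13.7% of all genes) and 0 fell (median 0.34), and their summed level was 16672 to 17372 in DBalP and 8888 to 19104 in DMSO. marco, a macrophage scavenger receptor, was a riser, from 54.5, 39.4 and 25.9 to 83.3, 140.0 and 133 (log2FC 1.58 ± 0.34), and the other was il1b, also an inflammatory gene, whose adjusted p of 0.019 became 0.066 without DBalP library 1 and 0.055 without DBalP library 3. Without DMSO library 1, 4 markers rose, and 1 rose without DBalP library 1 or 3. The neutrophil markers mpx and lyz had log2FC of 0.03 and 0.09 (adjusted p 0.91 and 0.91), and no marker of the list was at 0 in every library of a group. What part the number of leukocytes had in the inflammatory result was not tested.

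The genes with the largest increases over the whole table came from several of these groups. Among DEGs with a mean of at least 50 normalized reads in the higher group and no overlap, 451 were higher in DBalP. After cdkn1a these included LOC100537178 at 51.0, 33.9 and 32.7 in DMSO and 631, 554 and 643 in DBalP (log2FC 3.95 ± 0.20). clu, the secreted chaperone clusterin, read 534, 447 and 258 and 3403, 4614 and 5596 (log2FC 3.49 ± 0.23). cbx7a, a Polycomb chromobox protein, read 58.9, 34.8 and 45.8 and 548, 483 and 516 (log2FC 3.47 ± 0.27). The lowest DBalP library was above the highest DMSO library in all 3. bcl3, an NF-kB cofactor, read 8.42, 6.27 and 2.28 and 77.0, 88.8 and 71.6 (log2FC 3.71), cyp24a1, the vitamin D 24-hydroxylase, rose by 3.78 and cart3, of a neuropeptide family, by 3.65. ccl34a.4, a chemokine, rose by 3.93, with 4.6 without DMSO library 1 and 3.11 without DMSO library 3. Its value of 15.8 in DMSO library 1 is open to the same weight of single reads as that of isg15. The cell cycle inhibitor cdkn2a/b, a cyclin-dependent kinase inhibitor like cdkn1a, read 2.97, 8.52 and 54.1 in DMSO and 90.3, 105 and 102 in DBalP, and differed from 10 µM B[a]P by 3.36 and from 1 µM B[a]P by 3.63 (adjusted p 0.009 and 0.005). Its log2FC against DMSO, 2.97, was 2.13 without DMSO library 1 (adjusted p 0.0504, so the call was lost) and 4.02 without DMSO library 3.

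Photoreceptor transcripts were at the other end. By the same limits 469 genes were lower in DBalP, and rho, the rod opsin rhodopsin (NCBI Gene 30295), had the lowest log2FC. It read 369, 369.6 and 267 in DMSO and 23.4, 6.02 and 16.6 in DBalP (log2FC -4.53 ± 0.32, adjusted p 3.3e-07), against 431, 391 and 357 in 1 µM and 639, 617 and 503 in 10 µM B[a]P. All 9 other libraries of the study were above every DBalP library, and within lane 4 the difference from 1 µM B[a]P was -4.77 ± 0.32. The level of rho in controls varied between studies, with 14.9, 19.9 and 14.8 in the DMSO libraries of the DBahP study.

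Several outer segment genes fell with rho, and others did not pass the test. prph2lb, a disc rim peripherin, read 110.3, 83.8 and 73.2 in DMSO and 4.44, 4.51 and 3.51 in DBalP (log2FC -4.11 ± 0.24). abca4b, a retinoid transporter of outer segments, read 256, 264 and 158 and 19.1, 10.5 and 20.1 (log2FC -3.70 ± 0.24). pcare1, a regulator of actin at the photoreceptor cilium, read 39.6, 72.3 and 80.8 and 4.44, 7.52 and 2.89 (log2FC -3.47 ± 0.34). The groups did not overlap in any of them. As for rho, the control level of these 3 differed between studies. The DMSO libraries of the DBahP study read 5.69, 9.57 and 12.3 for prph2lb, 45.5, 43.1 and 56.8 for abca4b and 14.9, 8.77 and 16.5 for pcare1. Arrestins, which shut off opsin signalling, fell as well: sagb of rods read 296, 341 and 292 and 60.1, 51.2 and 46.1 (log2FC -2.54 ± 0.15), and arr3a of cones changed by -2.79. The cone opsin opn1sw1 changed by -2.80, with -2.19 without DBalP library 1 and -3.43 without DBalP library 3, and opn1lw2 by -2.41, with -3.07 without DMSO library 3. The cone transducin gnat2 and the cone opsin kinase grk7a had log2FC of 0.27 and 0.93 (adjusted p 0.62 and 0.063), and the cone phosphodiesterase pde6c one of -0.85 (adjusted p 0.072). grk7a passed without DMSO library 2 (1.32, adjusted p 0.0092) and pde6c without DMSO library 1 (-1.09, adjusted p 0.026). These 3 were picked for naming after their values were seen.

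The transcription factors of photoreceptors fell in step. crx (NCBI Gene 81881), the cone-rod homeobox factor, read 1459, 1617 and 1837 in DMSO and 301, 286 and 236 in DBalP (log2FC -2.57 ± 0.11, adjusted p 7.6e-09), against 1366, 1592 and 1375 in 10 µM B[a]P. otx5, a crx relative of eye and pineal gland, read 1052, 1256 and 1231 and 208, 286 and 208 (log2FC -2.34 ± 0.13, adjusted p 4.1e-08). No DBalP library reached any DMSO library for either. aanat2, the melatonin enzyme of the pineal gland, changed by -1.21. egflam, pikachurin of the photoreceptor synapse, read 528, 666 and 4386 and 58.2, 102 and 91.5, with DMSO library 3 far above the others, and its log2FC of -3.81 became -2.85 without that library.

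The list of eye and lens genes moved in both directions. Of 46 measured genes 15 fell (32.6%, against 14.3% of all genes) and 8 rose (17.4%, against 13.7%), 23 did not pass, and the median was 0.01, or -0.11 without DMSO library 3. The progenitor factor rx1 had a log2FC of -0.09 (adjusted p 0.69), while vsx1, of bipolar cells, changed by -2.01. Among the genes that rose, picked for naming after their values were seen, rpe65a of the retinal pigment epithelium read 281, 252 and 207 in DMSO and 413, 369 and 463 in DBalP (log2FC 0.75 ± 0.13, adjusted p 0.00065), and the lens crystallins cryaa and cryba2a rose by 0.74 and 0.38. The summed level of the list was 75551 to 87777 in DBalP and 62661 to 77090 in DMSO.

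Nervous system transcripts fell most evenly of all the lists. Of 44 measured neuron and synapse genes 41 fell and 0 rose (median -0.67, 40 and 0 without DMSO library 3). Of the same genes 33 were lower than with 10 µM B[a]P and 35 lower than with 1 µM B[a]P, against 11.7% and 13.1% of all genes. snap25a, a synaptic SNARE protein, read 3062, 3543 and 5454 in DMSO and 2094, 1956 and 2126 in DBalP (log2FC -0.92 ± 0.15). stmn2b, a regulator of axonal microtubules, read 2883, 2794 and 2770.0 and 1393, 1519.9 and 1569.8 (log2FC -0.91 ± 0.08). In both genes the highest DBalP library was below the lowest DMSO library. stxbp1b, of synaptic vesicle fusion, changed by -1.73, nrxn1a, a presynaptic adhesion molecule, by -1.22 and inab, a neuronal intermediate filament, by -1.17. Without DMSO library 3 the changes were smaller for stxbp1b (-1.44), nrxn1a (-0.74), inab (-0.98) and snap25a (-0.68), but not for stmn2b (-0.93). Each of these genes still passed the test. The 3 that did not pass include gad2, of GABA synthesis, and th, tyrosine hydroxylase, with log2FC of -0.16 and -0.43 (adjusted p 0.13 and 0.56). The summed level of the list was 60282 to 63841 in DBalP, 90291 to 120310 in DMSO, 90338 to 93416 in 10 µM and 94362 to 101982 in 1 µM B[a]P.

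Radial glia and neural progenitor genes fell too, 20 of 33 measured, with 1 that rose (median -0.62, 27 and 0 without DMSO library 3). gfap (NCBI Gene 30646), the glial filament, read 4182, 4465 and 3085 in DMSO and 826, 816 and 721 in DBalP (log2FC -2.30 ± 0.12, adjusted p 2.7e-08), against 4292, 4522 and 4309 in 10 µM B[a]P. neurod1, a proneural factor, read 2667, 3090.2 and 4642 and 930.2, 932 and 884 (log2FC -1.88 ± 0.15), and neurod4 209, 159 and 182 and 53.2, 85.8 and 71.9 (log2FC -1.39 ± 0.18). Every DBalP library was below every DMSO library for these 3. The Notch targets her4.2, her4.1 and her12 changed by -1.31, -1.11 and -1.07. atoh7, which starts retinal ganglion cells and is named after its value was seen, was the 1 that rose, by 0.69 (adjusted p 0.028). Its call was lost without DBalP library 1 (adjusted p 0.061), DBalP library 2 (0.13) or DMSO library 3 (0.062). The summed level was 22087 to 23199 in DBalP and 33702 to 37925 in DMSO.

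**Figure D4:**
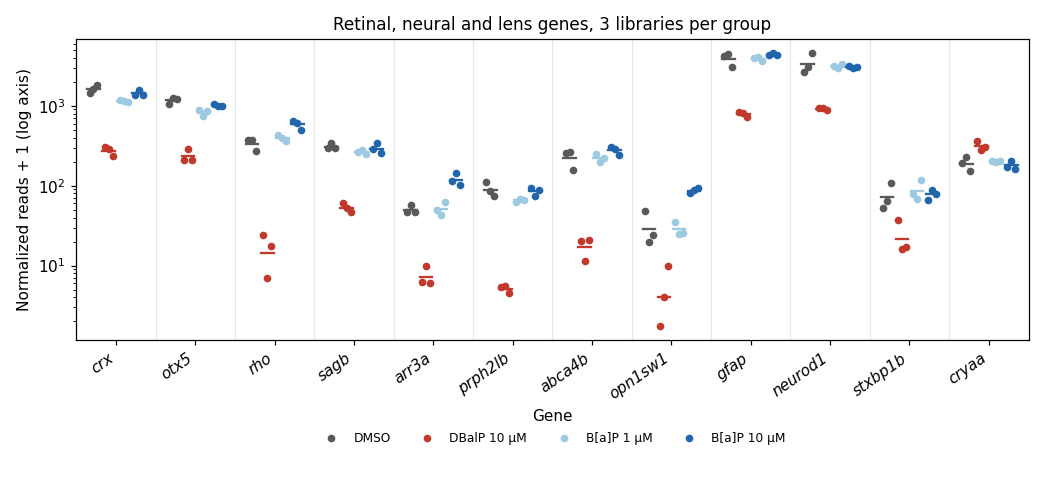
Normalized reads plus 1 on a log axis for 12 eye and neural genes in the DMSO, DBalP, 1 µM and 10 µM B[a]P libraries, a point per library and a bar at the group's mean on the log scale. The DBalP points of crx (236 to 301) and gfap (721 to 826) lie below every point of the other groups, while those of cryaa lie above the DMSO points.

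Other tissues changed less evenly. Of 23 heart muscle markers 11 rose (6 without DBalP library 1) and 0 fell (median 0.42). actc1a, a cardiac actin, read 2276, 2299.9 and 1718 in DMSO and 4601, 4054 and 3486 in DBalP (log2FC 0.95 ± 0.12), and nppa, the atrial natriuretic peptide, rose by 0.71, while myl7, the cardiac myosin light chain, had a log2FC of 0.17 (adjusted p 0.26). Of 31 skeletal muscle markers 10 rose and 0 fell (median 0.27), with myod1, the myogenic factor, at 0.89 and desma, desmin, at 0.92. The summed level of heart markers was 14075 to 15793 in DBalP and 9984 to 10804 in DMSO.

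The remaining lists are given beside the 13.7% of all genes that were higher and the 14.3% that were lower. Without DMSO library 3 these shares were 17.3% and 17%, and fewer genes passed over the whole table without any 1 DBalP library. Of 19 erythrocyte markers 4 fell (21.1%) and 1 rose (10 and 1 without DMSO library 3), with slc4a1a, the red cell anion exchanger, at -0.72 and the embryonic globin hbae3 at -0.67. Of 31 vascular genes 5 rose (16.1%, and 3 without DBalP library 1, DBalP library 3 or DMSO library 1) and 4 fell (12.9%, and 8 without DMSO library 3), shares near those of all genes, where the scavenger receptors stab2 and stab1 of lymphatic and venous endothelium rose by 1.24 and 0.88 and prox1a, a lymphatic and neural factor, changed by -1.30. Of 35 circadian genes 2 rose and 7 fell (20%, and 11 without DMSO library 3), with nfil3-6 at -2.21 and nr1d4b, a Rev-erb receptor, at -1.5. Of 23 pigment cell genes 1 rose and 5 fell (21.7%). Of 33 cartilage and bone genes 1 rose and 4 fell (12.1%), with 7 lower without DMSO library 1 and 11 without DMSO library 3. Of 29 epidermis genes 7 rose (24.1%) and 1 fell, with 4 higher without DBalP library 1 and 5 lower without DMSO library 3. Cytosolic ribosomal proteins gave 0 higher and 7 lower of 69, but 39 lower without DMSO library 3 and 1 without DBalP library 2 or 3.

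**Figure D5:**
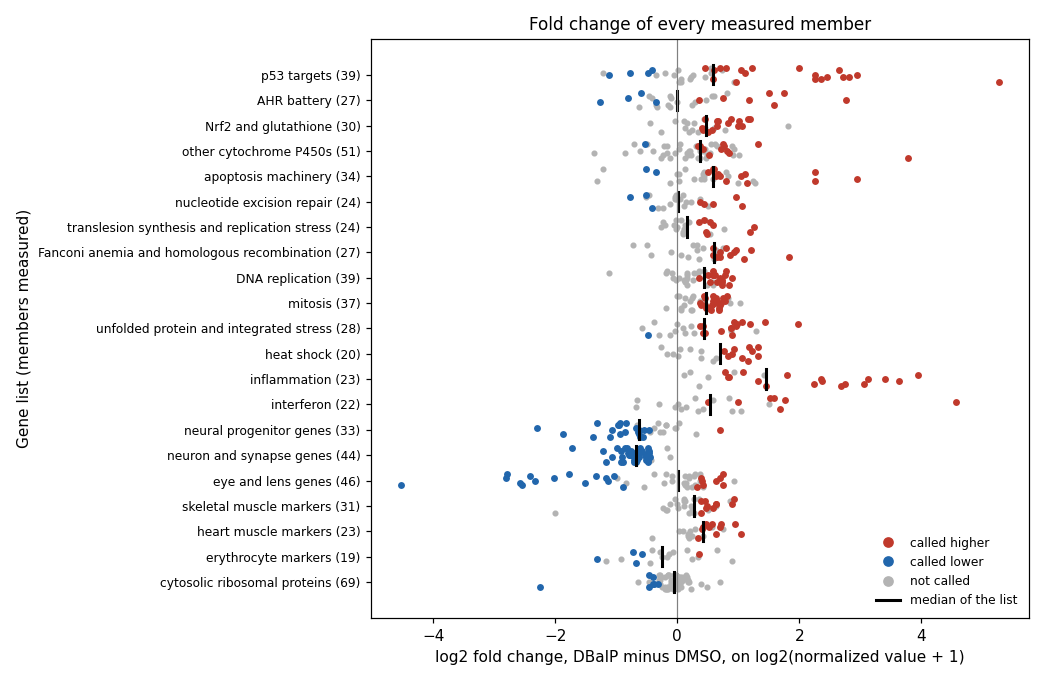
Log2 fold change of DBalP against DMSO for every measured member of 21 gene lists, in red where the gene rose and in blue where it fell at an adjusted p under 0.05, in grey otherwise, with the list's median as a black line. The medians run from -0.67 for neuron and synapse genes to 1.46 for inflammation, and the AHR battery has its median at 0.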

How the data were processed

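The authors aligned reads to GRCz11 with STAR, counted them per gene with HTSeq and normalized them with DESeq2, per the labels and the study's methods. The deposited table holds log2 values on DESeq2's variance-stabilized scale, as the authors made them, for 21854 genes in 170 entries. This scale was inverted, and 100% of 3715180 values came out as whole reads within 0.05 reads once size factors were undone. Normalized reads of entries that shared a lane and index were averaged, since for a typical gene such entries differed by about the sampling noise. The median squared standardized difference over genes, scaled so that Poisson noise gives 1, was 0.993 to 1.12, against 1.19 to 8.98 for other pairs. The average gave each entry the same weight, though entries of the study held 381605 to 8935016 reads. A read in a shallow entry therefore weighs more than a read in a deep one, which matters for low genes such as isg15 and wfikkn1. Each sample pooled 20 embryos, and p-values measure the spread between 3 such libraries a group.

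The main test was limma (3.58.1, R 4.3.3) with a mean-dependent prior on log2(normalized reads + 1), in 1 fit over the 4 groups of the study, two-sided, with Benjamini-Hochberg adjustment over all genes. Fold changes on this scale understate the change of low genes. The design had foreseen normalized values, not raw counts, and so limma on a log scale, after inversion of a variance-stabilized scale. A count model (voom weights on the recovered reads) was run as an alternative. The fits were also tested on data simulated with known fold changes in genes with a mean of at least 50 reads, which they recovered. The simulation gave every group the same spread and held no library as far apart as DMSO library 3. It therefore does not show how the fits handle such a library or low genes. Gene symbols matched 20411 of 21854 genes. The gene lists and the genes shown were chosen with earlier results of these data known. Named were any p53 or AHR gene, up to 8 called genes with the largest change and up to 2 uncalled genes of each other list, the 15 highest and 15 lowest genes with a mean of at least 50 reads and no overlap, and the 10 highest and lowest for the other contrasts. Some genes that the rule names are not reported here. Alternatives covered the pseudocount, scale, low-value filter, normalization, entry handling, replicate block, control group and each library left out. Pooling the reads of a library's entries was chosen after seeing the data. So was leaving out DMSO libraries for DBalP against 10 µM B[a]P. The lists other than p53 targets and AHR battery, and single genes, were also recomputed after seeing the data. These used the same alternatives except those that replaced the control group. No promoter sequence was examined. Python 3.11.15 drew the figures.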

Additional observations from a re-analysis of the deposited data

Results flagged for a closer look

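Of 44 pairs of a gene and a group of 4 libraries looked at in the DBahP study, 3 held a library far from the others. The distance was measured as its gap to the nearest library over the group's range. Chance flags about 1 in 20 pairs, and these pairs are not independent, since all come from the same 4 DBahP and 4 DBaiP libraries. The retinoid transporter abca4b had a gap of 0.854 of the range in DBaiP, where the libraries read 55.8, 70.5, 56.8 and 54.5. The proneural gene neurod1 had a gap of 0.858 in DBahP, with 1949, 2161, 2131 and 2132, and of 0.857 in DBaiP, with 2322, 1870.1, 1865 and 1931.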

How the results depend on the processing

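The count of 1546 DEGs lay between 1247 (pseudocount of 5) and 1568 (upper-quartile scaling) under the other scales, filters and entry handling, was 1282 with voom on the recovered reads, and was 1601 with the DMSO libraries of another study (PE50_BG) as controls. The genes called changed more than the count. Of the 1546, 1072 were also called with voom, 1097 without DMSO library 3 and 1202 with the pooled reads of a library's entries. With the PE50_BG controls 770 were also called, and 698 against 1 µM B[a]P. The count was 989 with only the DBalP and DMSO libraries in the fit, and 993 against 1 µM B[a]P. In the fit of DBalP and DMSO alone, 3097 genes passed an adjusted p under 0.05, against 6118 in the main fit. That fit has fewer samples to estimate the spread. It also lacks the B[a]P libraries, whose mean correlation with their own group was 0.983 to 0.988, against 0.940 to 0.959 for DMSO. Which of these lowered the counts was not tested. The 7 AHR battery genes that rose became 1 against 1 µM B[a]P, where 9.82% of all genes were higher. Because 1 µM B[a]P itself raised 8 of the 27 battery genes against DMSO, it is no unexposed control for this list. A lower count there does not bear on the calls against DMSO. Against the PE50_BG controls 11 battery genes rose. With those controls calls rose more widely. In either direction 8400 genes passed an adjusted p under 0.05, against 6118 in the main fit, and the p53 targets higher went from 19 to 26. The cause of the rise to 11 was not tested. Leaving out each library in turn gave 1278 to 2211 DEGs, 789 to 1188 for DBalP against 10 µM B[a]P, 864 to 1479 for the difference from DBahP, 17 to 22 p53 targets higher and 6 to 10 AHR battery genes higher. Single genes, and lists other than p53 targets and AHR battery, were not run with a replaced control group. Over 193 single genes no direction of a called gene reversed, and 147 of the 171 called genes passed under every setting run on them. Those lost somewhere include zmat3, xpc, foxq1b and marco. The log2FC of rho, whose reads are few in DBalP, shrank on the deposited log2 scale (-3.93). Of the counts of members of those other lists, 503 stayed within 1.5 times and 58 did not.

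The labels number entries and not libraries, and same-numbered libraries did not deviate together (correlations -0.079 to 0.12 over 18 pairs), so the numbers pair nothing. With the library number as a replicate block there were 1545 DEGs, 940 against 10 µM B[a]P, 818 for the difference from DBahP, 19 p53 targets and 7 AHR battery genes higher.

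The depth of 8312474 reads in the shallowest DBalP library limits genes with few reads, such as fas and wfikkn1, and 3 libraries a group limit all tests.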
